A study of Rattus norvegicus with 6 samples.

Results

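The Arg tRNA fragments of AR42J cells are the small RNA reads that align only to the nuclear tRNAs which decode arginine. They were taken from every deposited tRNA alignment to a mature nuclear tRNA of the types named ArgACG, ArgCCG, ArgTCG, ArgCCT and ArgTCT after their anticodons. A read counts once, at its deposited copy number, and reads that fit several Arg anticodons form a group of their own. The rule found 30202 reads of 3176 different sequences, among 1671615 reads of 67949 sequences aligned to tRNAs in all. A further 114 reads fit an Arg tRNA and a tRNA of another amino acid, and were not counted as members.

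AR42J is a rat cell line with features of the exocrine pancreas. The study sequenced 3 small RNA libraries of cells given sodium taurocholate at 200 µM for 30 min, and 3 of untreated cells. Taurocholate is a bile salt that is widely used to model acute pancreatitis. All cells grew in F12K medium with serum and antibiotics, and the labels name no genetic change in either group. They do not say whether the 3 libraries of a group came from separate cultures, so the tests weigh differences against a spread that may be technical only. Before library preparation the RNA was deacylated, its ends were repaired for ligation, and it was treated to remove methyl groups from 1-methyladenosine and 3-methylcytosine.

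Each tRNA carries 1 amino acid to the ribosome and pairs through its anticodon with a codon in mRNA. ArgACG, ArgCCG and ArgTCG read the arginine codons that begin with CG, and ArgCCT and ArgTCT read those that begin with AG. Cells also cut tRNAs into fragments: angiogenin and other nucleases cut in the anticodon loop under stress and leave a 5′ and a 3′ piece, and shorter fragments arise from cuts in the D and T loops. Here a fragment that begins within 3 nt of the 5′ end is a tRF-5 (up to 30 nt) or a tiRNA-5 (31 nt and longer). A fragment that ends within 3 nt of the terminal CCA is by the same lengths a tRF-3 or a tiRNA-3, and any other is an internal fragment, i-tRF.

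The sequences below carry the results that follow. They are the lead fragments of each anticodon and those that the comparisons of ends and levels turn on, copied from the deposited reads, 5′ to 3′. Position 1 is the first base of the mature tRNA and position 76 the last base of CCA, with 3′ fragments of ArgTCT counted back from that end. Capitals mark base 32 in internal fragments that hold it and bases 74 to 76, the CCA tail, in 3′ fragments.
ArgCCT 20 to 54, lead: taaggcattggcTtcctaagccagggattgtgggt
ArgCCT 20 to 54, other: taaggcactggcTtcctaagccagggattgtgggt
ArgCCT 20 to 53: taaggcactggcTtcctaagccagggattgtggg
ArgCCT 35 to 54: ctaagccagggattgtgggt
ArgCCT 12 to 29: ctaatggataaggcactg
ArgCCG 20 to 54: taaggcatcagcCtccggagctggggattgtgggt
ArgTCG 32 to 55: Cttcggatcagaagattgagggtt
ArgACG 60 to 76: tcctggctggctcgCCA
ArgACG 59 to 76: ctcctggctggctcgCCA
ArgACG 59 to 75: ctcctggctggctcgCC
ArgACG 55 to 76: tcgactcctggctggctcgCCA
ArgTCT 60 to 76: tcccgccagagtcgCCA

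ArgCCT and ArgCCG internal fragments of positions 20 to 54 have the same ends and differ at base 32 among other bases: the ArgCCT reads carry the change C32T against their reference (reference base, position, read base), and the ArgCCG reads match theirs. The lead and the other ArgCCT sequence differ by T27C alone, the lead having the first base. The lead fits 2 references, on rat chromosomes 4 and 10, and the other fits 5 references, on chromosomes 1, 10 and X. The reference names give these chromosomes, without the build or coordinates of the tRNA genes.

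The libraries held 338310, 254998 and 306389 tRNA reads with taurocholate, and 193750, 348451 and 229717 untreated. Of these, 4849, 3963 and 5906 were Arg reads with taurocholate, and 3924, 6491 and 5069 untreated. Taurocholate replicate 1 stood apart: 18.1% of its Arg reads ended in a mismatched G, against 0.755% to 4.15% in the other 5 libraries. Summed over 6 markers, pancreas miRNAs were at 339480 to 448880 counts scaled to 1000000 miRNA precursor reads (CPM) with taurocholate and 412990 to 478020 CPM untreated, most of it miR-148a. Of these markers, miR-7a was at 41368 to 54810 CPM with taurocholate and 55131 to 59949 CPM untreated, so that the groups did not overlap. miR-375 was at 6.08 to 77.5 CPM with taurocholate and 2.51 to 41.4 CPM untreated. The acinar miRNAs miR-216a, miR-216b and miR-217 were at or below 1.10 CPM in all 6 libraries. Summed over 7 markers, stroma and muscle miRNAs were at 11877 to 16815 CPM with taurocholate and 14924 to 17001 untreated. Summed over 5, blood and immune miRNAs were at 1947 to 3651 CPM with taurocholate and 2069 to 3868 untreated. Liver miR-122 was at 6.88 to 23.9 CPM with taurocholate and 18.6 to 26.7 untreated. The part of other cells in the results was not tested.

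ArgCCT led the Arg reads, with ArgACG next and ArgTCT, ArgTCG and ArgCCG below them. Of all Arg reads, 18512 were ArgCCT, 6480 ArgACG, 2899 ArgTCT, 1254 ArgTCG and 673 ArgCCG, and 384 fitted several Arg anticodons. The order was the same in all 6 libraries. On the log2 scale, ArgCCT exceeded ArgACG by 1.52 ± 0.28, ArgACG exceeded ArgTCT by 1.18 ± 0.46, ArgTCT exceeded ArgTCG by 1.16 ± 0.30 and ArgTCG exceeded ArgCCG by 0.90 ± 0.11 (SD, n = 6 libraries). Each difference had an adjusted p of 0.03125 in a two-sided exact paired permutation test, the smallest that 6 pairs allow. The neighbours compared were picked by mean CPM in these same libraries, so the tests are not independent of the order. When only reads without a mismatch were kept, the lead of ArgCCT over ArgACG was 0.00865, with an adjusted exact p of 0.969. The ArgTCT references are 88 to 102 positions long against 76 for the others and keep the intron, so spliced ArgTCT reads that cross the joint cannot align and its level is a lower limit.

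**Figure D1:**
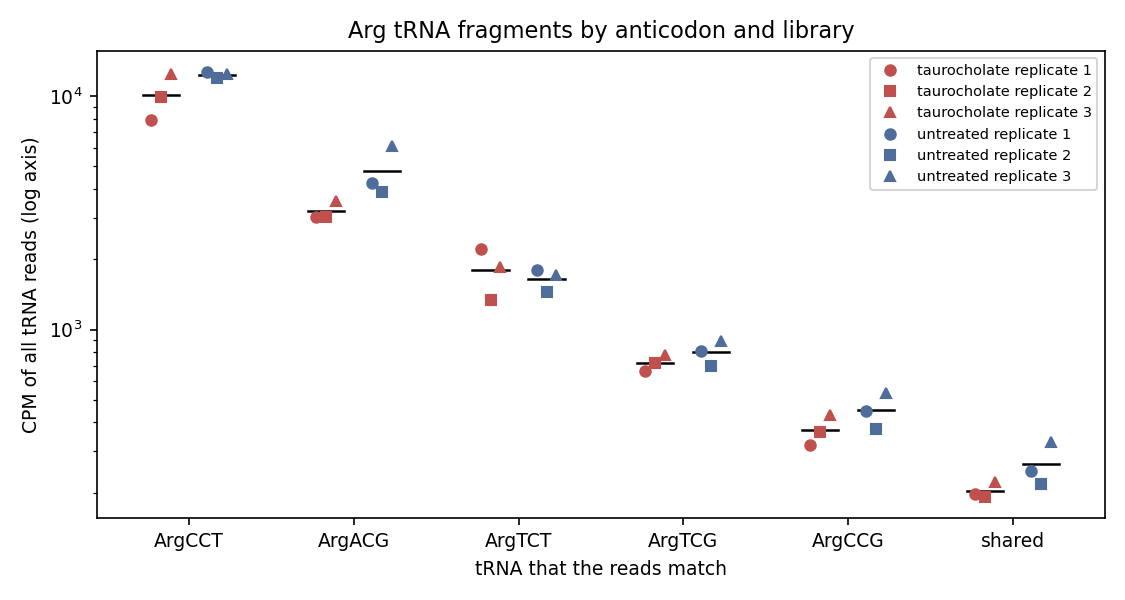
Reads of each Arg anticodon in CPM of all tRNA reads (log axis) in the 3 taurocholate libraries (red) and the 3 untreated libraries (blue). Symbols are single libraries, black lines are group means, and "shared" holds reads that fit several Arg anticodons. All 3 ArgACG values with taurocholate, 3027 to 3561, lie below the untreated ones, and ArgCCT with taurocholate spreads from 7916 to 12435.

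Arg reads made up 1.49%, 1.63% and 2.02% of reads on nuclear mature tRNAs with taurocholate, and 2.15%, 1.96% and 2.34% untreated. The groups overlapped, because taurocholate replicate 3 exceeded untreated replicate 2. The means were 1.71% ± 0.276 with taurocholate and 2.15% ± 0.187 untreated (SD, n = 3 each), a difference of -0.436 percentage points with p = 0.2 in a two-sided exact permutation test. With error-free reads only the difference was -0.175 points (exact permutation p = 0.4). That test cannot give less than 0.1 with 3 libraries a group. In bulk RNA, fewer cells that hold a fragment and less of it in each cell cannot be told apart.

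ArgACG had 3027, 3035 and 3561 CPM of all tRNA reads with taurocholate, and 4248, 3900 and 6134 CPM untreated. All 3 taurocholate libraries were below all 3 untreated ones, and untreated replicate 3 was the highest. edgeR's quasi-likelihood test, with TMM scaling, gave a log2 fold change of taurocholate over untreated of -0.51 (SE 0.17) and an adjusted p of 0.688 over 72 anticodon groups. Without untreated replicate 3 the log2 fold change was -0.30.

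ArgCCT had 7916, 9890 and 12435 CPM with taurocholate, and 12707, 11993 and 12454 CPM untreated. The untreated libraries lay close together and the taurocholate libraries spread downwards, replicate 1 being the lowest. The log2 fold change was -0.26 (SE 0.16, adjusted p 0.688, edgeR). It was 0.13 with error-free reads only, which leave out most ArgCCT reads.

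ArgTCT was at 2208, 1341 and 1847 CPM with taurocholate, and 1791, 1444 and 1715 CPM untreated. The groups overlapped fully, and its log2 fold change of 0.18 (SE 0.20) was -0.029 without taurocholate replicate 1. ArgTCG, at 665 to 780 CPM with taurocholate and 700 to 897 CPM untreated, also overlapped. So did ArgCCG, at 319 to 431 CPM with taurocholate and 373 to 535 CPM untreated.

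The filter on low counts passed 6 of 11 Arg groups, the 5 anticodons and the reads that fit both ArgCCG and ArgTCG. None was called at an adjusted p under 0.05 by edgeR, nor was any of the 72 groups (0.0%). At an unadjusted p under 0.05 the count was 1, ArgACG, which was lower, against a background of 2.78%, or 1.39% lower. DESeq2 called none of the 6 after adjustment and 1 before. Groups did not overlap for ArgACG and for the reads shared by ArgCCG and ArgTCG, both lower with taurocholate, against a background of 8.33% of anticodon groups, or 6.94% lower. The median log2 fold change was -0.24 over the 6 and -0.09 over all 72.

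Arg fragments were mostly internal. In the mean over the 6 libraries, i-tRFs made up 71.7% ± 4.04 of Arg reads, against 18.4% ± 2.87 of reads on other nuclear tRNAs. tRF-3 followed with 26.9% ± 3.8, against 50.0% ± 2.05 on other nuclear tRNAs. Fragments of the 5′ end were scarce in Arg: tRF-5 made up 0.158% ± 0.053 of Arg reads against 13.9% ± 2.69 on other tRNAs, and tiRNA-5 made up 0.237% ± 0.096 against 17.0% ± 3.90. tiRNA-3, at 1.0% ± 0.490 against 0.687% ± 0.169, was the one class of low share that was higher in Arg. All 6 libraries gave the same direction for each class, and each difference had an exact paired permutation p of 0.03125 (two-sided, also after adjustment over the 5 classes). The sizes depend on the mismatched reads: with error-free reads only, Arg minus other tRNAs was 32.1 points for i-tRF, against 53.3 with all reads, and -4.84 points for tRF-3, against -23.1 with all reads. The tiRNA-3 difference fell short without reads of 51 nt (adjusted exact p 0.0938) and without reads mismatched at the last base (0.25). ArgCCT held 18512 of the 30202 Arg reads and was 98.9% i-tRF, so it weighs most in the i-tRF and tRF-3 shares. Pooled over the libraries, tRF-3 made up 82.4% of ArgACG and 70.8% of ArgTCT reads, above the other nuclear tRNAs. It made up 30.6% of ArgTCG and 13.8% of ArgCCG reads. The low tRF-3 share thus does not hold for each Arg anticodon.

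The class shares differed among the 5 anticodons, with values pooled over the 6 libraries. ArgCCT was 98.9% i-tRF, with a range of 98.5% to 99.4% over the libraries. ArgACG was 82.4% tRF-3 and 16.9% i-tRF, and ArgTCT was 70.8% tRF-3 and 24.8% i-tRF. The tRF-3 share of ArgTCT is an upper limit, because its spliced reads that cross the joint cannot align. ArgTCG was 65.8% i-tRF and 30.6% tRF-3, and ArgCCG was 74.6% i-tRF, 13.8% tRF-3 and 8.32% tiRNA-3. ArgTCT held 78 of the 123 Arg reads in the 5′ classes.

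**Figure D2:**
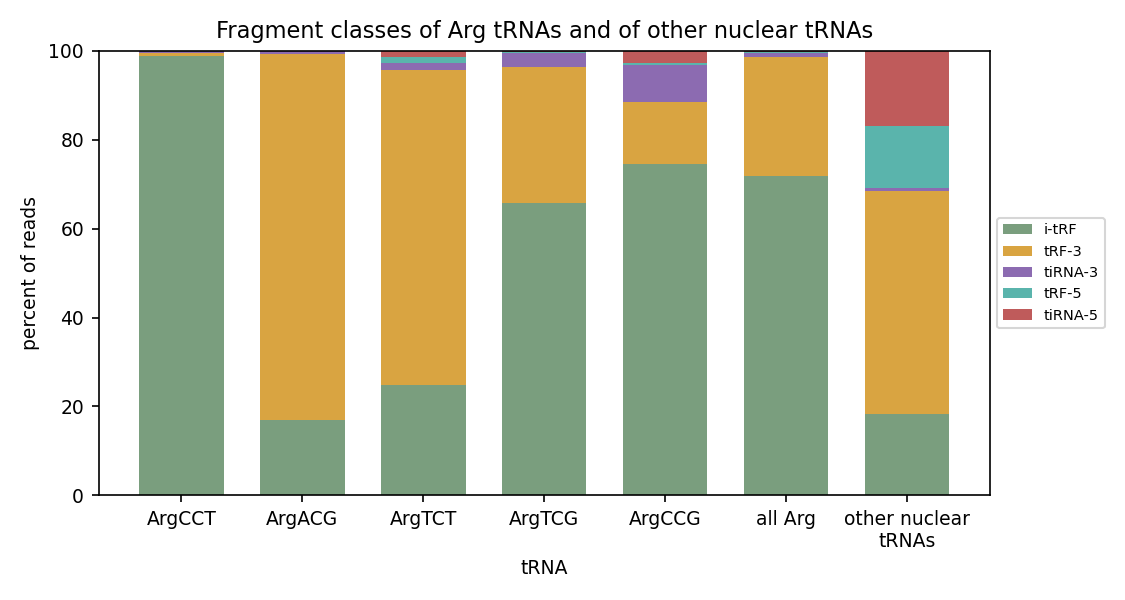
Percent of reads in each fragment class for the 5 Arg anticodons and all Arg tRNAs (reads pooled over 6 libraries) and for other nuclear tRNAs (mean of 6 libraries). ArgCCT is almost all internal fragment, ArgACG and ArgTCT are mostly tRF-3, and the 5′ classes that are large in other tRNAs are nearly missing. Spliced ArgTCT reads that cross the joint cannot align and are left out.

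No class share of Arg reads passed a test between taurocholate and untreated libraries. The i-tRF share of Arg reads was 65.5%, 74.7% and 74.3% with taurocholate, and 74.1%, 74.1% and 67.7% untreated. The tRF-3 share was 33.2%, 24.4% and 24.3% with taurocholate, and 24.7%, 24.6% and 30.0% untreated. In both classes taurocholate replicate 1 and untreated replicate 3 departed from the other 4 libraries, which lay close together. The smallest exact permutation p over the 5 classes was 0.2 (adjusted 0.5), for tiRNA-3 at 0.739% ± 0.172 with taurocholate and 1.27% ± 0.601 untreated, and for tRF-5 at 0.195% ± 0.016 with taurocholate and 0.121% ± 0.052 untreated (SD, n = 3 each). Reads of 26 to 40 nt from the 5′ end averaged 31.5 nt ± 1.02 with taurocholate and 31.7 nt ± 1.15 untreated (exact permutation p = 1.0), on only 5 to 14 reads a library.

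ArgCCT fragments came mainly from the middle of the tRNA, from the D loop through the anticodon to the start of the T loop. Of its 18314 i-tRF reads, 28.3% spanned positions 20 to 54, 11.7% spanned 35 to 54, 8.52% spanned 19 to 54 and 7.83% spanned 20 to 53. The anticodon occupies positions 34 to 36, so the fragments of 35 to 54 begin inside it. The piece on the other side, 16 to 31, held 4.04%. In the group means, fragments that start before 32 and end after 36 made up 64.4% ± 13.4 of ArgCCT i-tRFs with taurocholate and 74% ± 3.99 untreated, with overlap.

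**Figure D3:**
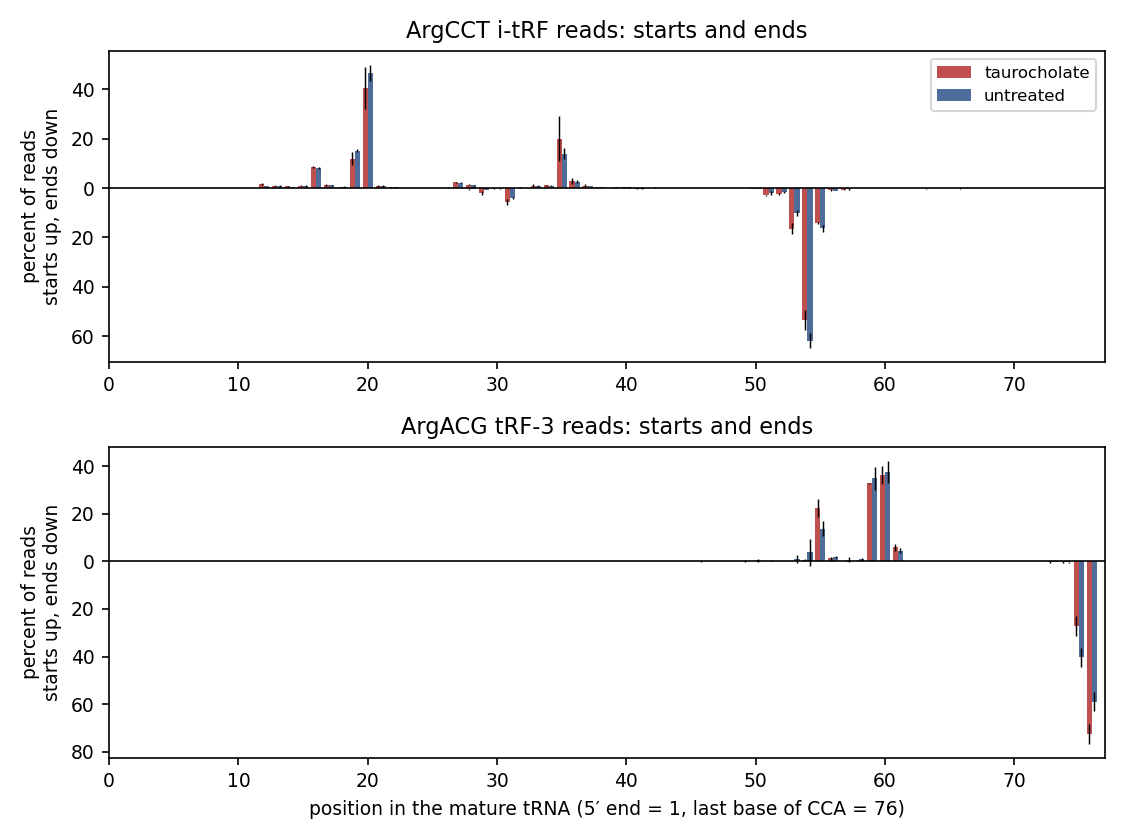
Percent of ArgCCT i-tRF reads (upper panel) and ArgACG tRF-3 reads (lower panel) that start (bars up) or end (bars down) at each position of the mature tRNA, with taurocholate (red) and untreated (blue). Bars are means of 3 libraries and lines are 1 SD. ArgCCT fragments start mostly at 19, 20 and 35 and end mostly at 53 to 55, and ArgACG fragments start at 55, 59 and 60 and end at 75 or 76.

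Most ArgCCT reads can be placed on groups of isodecoders, tRNA genes with the same anticodon and different bodies. The 2 references of the lead sequence took 29.9%, 42.9% and 49.1% of ArgCCT reads with taurocholate, and 46.8%, 52.1% and 48.1% untreated. The 5 references of the other took 26.8%, 31.4% and 30.8% with taurocholate, and 28.1%, 28.5% and 29.0% untreated. Reads that fit all 7 alike, such as 35 to 54, took 40.9%, 24% and 18.4% with taurocholate, and 23.8%, 18.2% and 20.2% untreated. Each share overlapped between the groups, and taurocholate replicate 1 had the lowest value of the first and the highest of the last.

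The lead ArgCCT fragment, 35 nt of positions 20 to 54 shown above, had 188, 353 and 660 reads with taurocholate, and 439, 821 and 466 untreated. In CPM this was 556, 1384 and 2154 with taurocholate, and 2266, 2356 and 2029 untreated. Taurocholate replicates 1 and 2 were below every untreated library and replicate 3 was within their range, and the log2 fold change was -0.61 (SE 0.34, adjusted p 0.446, edgeR over 2233 read sequences). It was -0.32 without taurocholate replicate 1 and -0.93 without taurocholate replicate 3. The other isodecoder's fragment of 20 to 54 had 109, 158 and 278 reads with taurocholate, and 196, 306 and 203 untreated (log2 fold change -0.46, adjusted p 0.451, edgeR). The 3′ piece of 35 to 54 had 306, 236 and 236 reads with taurocholate, and 205, 287 and 178 untreated, and the groups overlapped in CPM.

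The 3′ end of ArgCCT fragments lay 1 base earlier, at 53, in a larger share of reads in each taurocholate library than in any untreated one. Ends at 54 made up 49.0%, 54.4% and 57.0% of ArgCCT i-tRFs with taurocholate, and 62.9%, 63.9% and 58.5% untreated. Ends at 53 made up 19%, 15.6% and 14.9% with taurocholate, and 9.11%, 11.5% and 9.93% untreated. Neither share overlapped between the groups. As a percentage of the reads that end at either, 53 took 27.9%, 22.3% and 20.8% with taurocholate, and 12.7%, 15.2% and 14.5% untreated, a difference of 9.51 points with an exact permutation p of 0.1, the smallest possible. Without reads mismatched at the last base the values were 33.4%, 22.8% and 21.0% with taurocholate, and 13.2%, 15.4% and 15.0% untreated. With error-free reads only they were 17.3%, 8.16% and 9.71% with taurocholate, and 7.05%, 7.82% and 7.72% untreated. The groups were apart in each setting, but with error-free reads only narrowly, at 8.16% against 7.82%. Taurocholate replicate 1 lay far above the rest there, and error-free reads leave out most ArgCCT reads.

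This was 1 of 81 starts and ends compared over 11 Arg features, chosen after the values were seen. After adjustment over the 81 the smallest p was 0.368. Groups did not overlap in 22 of the 81, or 27.2%, against 24.3% of 999 starts and ends over all nuclear tRNA features, so the Arg count is near the background.

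ArgCCT reads almost always carried a base other than the reference C at position 32, in the anticodon loop just before the anticodon. Of 12825 reads that cover it, 12320 were mismatched, or 96.1% (exact 95% interval 95.7% to 96.4%, counting error only). C32T made up 80.4% of covering reads, C32A 9.96% and C32G 5.74%. Mammalian tRNA-Arg with this anticodon is known to carry 3-methylcytosine at position 32, a base that the library protocol was meant to demethylate. What gave rise to the mismatches was not tested.

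The mismatch share overlapped between the groups. It was 94.9%, 96.1% and 97.1% with taurocholate, and 95.8%, 95.7% and 96.1% untreated (difference 0.182 points, exact permutation p = 0.7). The mix of bases overlapped too: C32T made up 85.1%, 84.7% and 83.4% of the mismatches with taurocholate, and 85.3%, 82.6% and 82.6% untreated. The other Arg tRNAs also have C at 32, but their aligned reads seldom had a mismatch there. It was found in 2 of 136 covering ArgTCT reads, both in untreated replicate 3. It was found in 0 of 264 ArgACG, 0 of 210 ArgTCG and 0 of 198 ArgCCG reads. With 3 reads as the limit for a count of 0, shares of up to 1.43% for ArgTCG and 1.52% for ArgCCG are allowed (counting error only). Spliced ArgTCT reads that cross the joint cannot align, so they are missing from the 136. The alignments allow 1 mismatch or indel, so these shares leave out any read with a second one. No limit is set for ArgACG, where 302 of 395 reads that cover position 34 carried A34G. In such reads a mismatch at 32 would have been a second one and could not be seen.

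**Figure D4:**
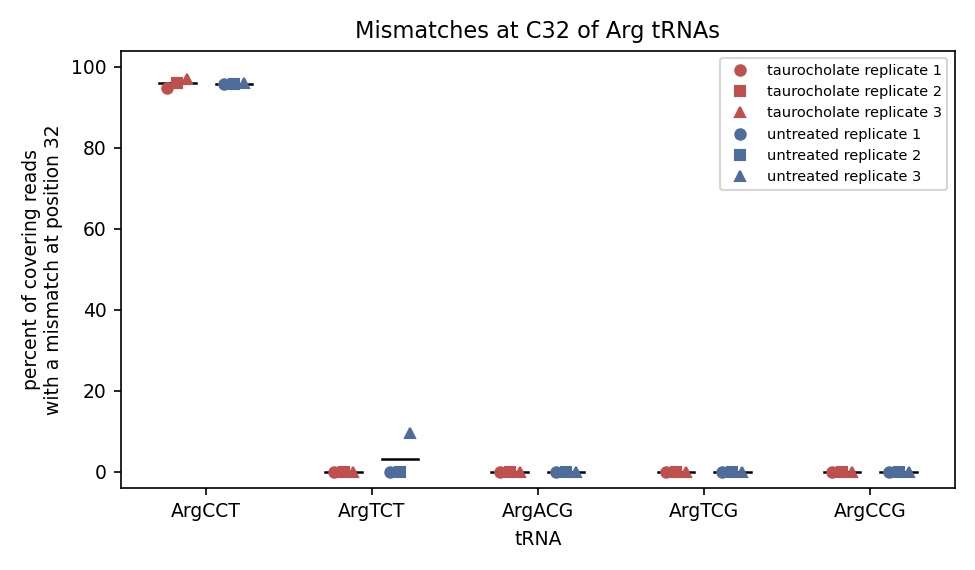
Percent of reads covering position 32 that carry a base other than the reference C, for each Arg tRNA and library, with taurocholate (red) and untreated (blue); black lines are group means. All 6 ArgCCT libraries sit between 94.9% and 97.1%. The other tRNAs sit at 0 except ArgTCT in untreated replicate 3, where 2 of 21 reads differ. Reads with a second mismatch and spliced ArgTCT reads that cross the joint are not in the alignments.

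Mismatches were also counted at 2 other positions known to be modified in tRNAs. At position 34 of ArgACG, the wobble base, which cells deaminate to inosine and reverse transcriptase reads as G, A34G was seen in 302 of 395 covering reads, or 76.5% (exact 95% interval 72.0% to 80.6%, counting error only). Its share was 73.6%, 70.6% and 79.5% with taurocholate, and 78.2%, 75.0% and 80.0% untreated (exact permutation p = 0.3). At position 58, where many tRNAs carry 1-methyladenosine, 47 of 171 ArgCCT reads were mismatched (27.5%), against 14 of 1450 ArgACG reads (0.966%), 11 of them in untreated replicate 3.

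ArgACG was a family of short 3′ fragments that start in the T loop and run to the CCA tail. Reads of 16, 17 and 18 nt held 22.7%, 29.4% and 18% of ArgACG reads, and reads of 22 nt held 13.8%. The 17-nt fragment from 60 to 76 had 129, 106 and 183 reads with taurocholate, and 75, 195 and 159 untreated. In CPM the groups overlapped, at 381, 416 and 597 CPM with taurocholate, and 387, 560 and 692 CPM untreated (log2 fold change -0.05, adjusted p 0.933, edgeR). The 18-nt fragment from 59 to 76 had 114, 109 and 156 reads with taurocholate, and 75, 208 and 148 untreated.

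The longer start, at 55, took a larger share of ArgACG tRF-3 reads in every taurocholate library. It held 19.4%, 26.5% and 21.3% with taurocholate, and 16.5%, 14.2% and 10.6% untreated, without overlap (exact permutation p = 0.1, adjusted 0.368 over 81). Its 22-nt fragment had 75, 128 and 123 reads with taurocholate, and 50, 103 and 62 untreated, a log2 fold change of 0.60 (SE 0.27, adjusted p 0.355, edgeR), and the groups overlapped in CPM. Start 59 held 32.4%, 33% and 32.8% with taurocholate, and 35.6%, 39.2% and 29.7% untreated, with overlap. Start 54 held 0.585%, 0.790% and 0.109% with taurocholate, and 0.471%, 0.521% and 10.5% untreated. Untreated replicate 3 thus had the lowest share at 55 and by far the highest at 54. Starts at 54 and 55 were not tested together.

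ArgACG 3′ fragments reached the last base of the CCA tail in a larger share of reads in each taurocholate library than in any untreated one. Of tRF-3 reads, 77%, 71.6% and 69.1% ended at 76 with taurocholate, and 55.3%, 58.8% and 63.2% untreated, a difference of 13.5 points (exact permutation p = 0.1, adjusted 0.368 over 81). This end was among the 81 starts and ends above, whose share without overlap was near the background, and its comparison was not planned. Ends at 75, which lack the final A, made up 22.2%, 28.4% and 30.3% with taurocholate, and 44.1%, 41.0% and 36% untreated. With error-free reads only, complete ends made up 76.9%, 81.8% and 80.9% with taurocholate, and 64.8%, 71.3% and 70.9% untreated, again without overlap. The full CCA tail is what the aminoacyl-tRNA synthetase charges, and the CCA-adding enzyme rebuilds it.

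Outside ArgACG, the groups were apart in the share of complete ends for some tRNAs and overlapped for others. ArgTCT had 79.3%, 83.4% and 81.5% with taurocholate, and 73.7%, 74.5% and 73.4% untreated, but overlapped with error-free reads only. ArgTCG averaged 79.6% with taurocholate and 71.8% untreated, with overlap. ArgCCG went the other way, at 80.6% with taurocholate and 88.9% untreated on 93 reads in all, also with overlap. Reads shared by ArgCCG and ArgTCG averaged 92.9% with taurocholate and 91.1% untreated, with overlap. Other nuclear tRNAs had 82.2%, 78.4% and 79.6% with taurocholate, and 71.5%, 75.6% and 76% untreated. All Arg tRF-3 reads had 78.3%, 75.3% and 73.3% with taurocholate, and 61.9%, 63.1% and 66.1% untreated. Set against the other nuclear tRNAs of the same library, the Arg share stood at -3.86, -3.06 and -6.28 points with taurocholate, and at -9.62, -12.5 and -9.94 points untreated, without overlap, and the groups differed by 6.29 points (exact permutation p = 0.1). With error-free reads only that difference was 5.22 points, and without reads mismatched at the last base it was 4.80 points. In the latter setting, taurocholate minus untreated was 9.81 points for ArgACG, 2.91 for ArgTCT, 0.778 for ArgTCG and 3.16 for other nuclear tRNAs. ArgACG held 5338 of the 8095 Arg tRF-3 reads, so it weighs most in the value for all Arg.

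**Figure D5:**
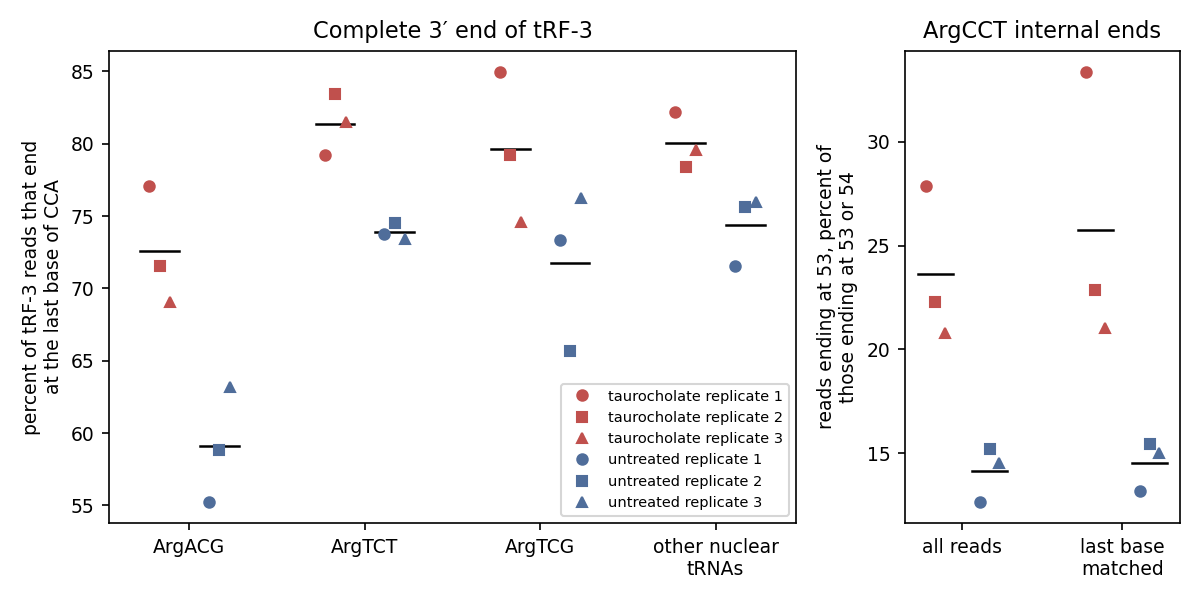
Left, percent of tRF-3 reads that end at the last base of CCA for 3 Arg tRNAs and for other nuclear tRNAs; right, ArgCCT i-tRF reads that end at 53 as a percent of those that end at 53 or 54, with all reads and without reads mismatched at the last base. Points are libraries with taurocholate (red) and untreated (blue), black lines are means, and neither vertical axis starts at 0. The groups are apart for ArgACG, ArgTCT, other nuclear tRNAs and both ArgCCT settings, and overlap for ArgTCG.

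Reads of the fragment that lacks the final A enter these shares. The 17-nt ArgACG sequence of 59 to 75 had 34, 30 and 40 reads with taurocholate, and 45, 86 and 72 untreated. All taurocholate libraries were lower in CPM, at 101, 118 and 131 CPM against 232, 247 and 313 CPM untreated. Its log2 fold change was -0.98 (SE 0.24, adjusted p 0.302, edgeR).

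ArgTCT was also mainly 3′ fragment among the reads that could align. It had 588, 223 and 390 tRF-3 reads with taurocholate, and 259, 330 and 263 untreated. Its lead, the 17-nt fragment from 60 to 76, had 120, 74 and 109 reads with taurocholate, and 58, 85 and 60 untreated. That was 355, 290 and 356 CPM with taurocholate, and 299, 244 and 261 CPM untreated, with overlap (log2 fold change 0.55, SE 0.27, adjusted p 0.403, edgeR). The tRF-3 class as a whole had a log2 fold change of 0.35, which was -0.028 without taurocholate replicate 1.

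Introns of tRNAs lie just after position 37, and the internal ArgTCT reads that could align often started at the base that follows. Counted back from the 3′ end as in a spliced tRNA, 316 of 718 ArgTCT i-tRF reads (44.0%) started at position 38. Spliced fragments that start earlier and cross the joint cannot align, so they are missing from the 718 and the share is an upper limit. The share was 44.2%, 45.7% and 52.3% with taurocholate, and 27.2%, 41.1% and 47.1% untreated, with overlap (exact permutation p = 0.3). Of all ArgTCT reads, 126 (4.35%) ran from position 37 or before into the intron or past it.

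ArgTCG and ArgCCG, the least abundant, shared start sites with the larger groups. ArgTCG i-tRFs started at 32 in 46.7% of reads and ended at 55 in 48.4%. Their lead, the 24-nt sequence of 32 to 55, had 11, 19 and 20 reads with taurocholate, and 15, 26 and 16 untreated (log2 fold change -0.22, adjusted p 0.742, edgeR). ArgCCG i-tRFs started most often at 34 (17.1%) and ended most often at 54 (27.3%), and the sequence of 20 to 54 had only 1, 5 and 7 reads with taurocholate, and 2, 10 and 1 untreated.

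Of the 34 combinations of Arg anticodon and class in the data, 13 passed the filter and none was called by edgeR (0.0% of 230 called, smallest adjusted p 0.461 among Arg). At an unadjusted p under 0.05 there were 2, both lower with taurocholate, against a background of 9.57% in both directions and 4.78% in each. DESeq2 gave 0. These were ArgACG i-tRF, at 494, 541 and 558 CPM with taurocholate and 929, 585 and 1027 CPM untreated (log2 fold change -0.51), and i-tRFs shared by ArgCCG and ArgTCG, at 76.9, 78.4 and 88.1 CPM with taurocholate and 114, 121 and 144 CPM untreated (-0.49). ArgACG tRF-3 had 2524, 2482 and 2986 CPM with taurocholate, and 3288, 3303 and 4997 CPM untreated (log2 fold change -0.38, SE 0.18, adjusted p 0.461). It was -0.22 without untreated replicate 3.

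Groups did not overlap in 6 of the 13 combinations, 4 lower and 2 higher, against a background of 17.4%, with 13.5% lower and 3.91% higher. Lower with taurocholate were ArgACG i-tRF and tRF-3, the shared i-tRF and ArgCCT tiRNA-3 (log2 fold change -0.46). Higher were ArgCCG tRF-3, at 53.2, 70.6 and 65.3 CPM with taurocholate and 51.6, 43.0 and 52.2 CPM untreated (0.50), and tRF-3 shared by ArgCCG and ArgTCG (0.53). The other 7 combinations overlapped, with log2 fold changes of -0.19 for ArgCCG i-tRF, -0.18 for ArgCCT i-tRF, -0.10 for ArgTCG i-tRF, 0.19 for ArgTCT i-tRF, 0.21 for ArgTCG tRF-3, 0.35 for ArgTCT tRF-3 and 0.68 for ArgCCT tRF-3. The ArgCCT tRF-3 value was 1.44 without untreated replicate 3, 0.39 without untreated replicate 1 and 0.41 without untreated replicate 2. The median over the 13 was -0.10, and over all 230 it was 0.01.

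Single read sequences were tested in the same way. Of 3176 Arg sequences, 73 passed the filter, and they held 65.3% of Arg reads. None was called by edgeR (0.0% of 2233, smallest adjusted p 0.302 among Arg), and 14 had an unadjusted p under 0.05 against a background of 14.1%. Of the 14, 4 were higher and 10 lower, against 6.99% and 7.12%. Groups did not overlap in 20 against 17.4%, of which 5 were higher and 15 lower against 4.75% and 12.7%. DESeq2 called 1 Arg sequence, a 16-nt ArgACG fragment of 60 to 75 with the change C75T. It had 14, 18 and 47 reads with taurocholate, and 48, 92 and 51 untreated, a log2 fold change of -1.35 and an adjusted p of 0.0226 in DESeq2, and was named after its values were seen.

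Among sequences higher with taurocholate, the smallest p belonged to ArgCCT 12 to 29, an 18-nt fragment of the D arm. It had 22, 28 and 22 reads with taurocholate, and 8, 10 and 10 untreated, or 65.0, 110 and 71.8 CPM with taurocholate and 41.3, 28.7 and 43.5 CPM untreated. The groups were apart, and the log2 fold change was 1.32 (SE 0.34, adjusted p 0.302, edgeR). Next came ArgCCT 20 to 53, with 142, 111 and 144 reads with taurocholate, and 60, 111 and 73 untreated. In CPM it was at 420, 435 and 470 with taurocholate, and 310, 319 and 318 untreated, again apart (0.70, SE 0.22, adjusted p 0.302). The third was ArgCCT 35 to 54 with the change T54A, at 39, 23 and 36 reads with taurocholate, and 12, 19 and 19 untreated (0.93, SE 0.32, adjusted p 0.319).

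Among sequences lower with taurocholate, the smallest p belonged to ArgCCT 19 to 54 with C32G, at 1, 4 and 6 reads with taurocholate, and 10, 21 and 12 untreated (log2 fold change -1.97, SE 0.45, adjusted p 0.302, edgeR). The same span with C32T, which is more abundant, had 46, 113 and 168 reads with taurocholate, and 142, 247 and 149 untreated (-0.80, SE 0.36, adjusted p 0.373). ArgACG 59 to 76 with A76T followed, at 3, 2 and 8 reads with taurocholate, and 10, 18 and 14 untreated (-1.73, SE 0.41), and then ArgACG 59 to 75, given above.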

How the data were processed

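The deposited tRNA alignments list each read sequence with its copy number, a count, and its position, length and mismatches on rat tRNA references. The submitters' processing notes name FastQC, cutadapt and Novoalign 2.07.11, with no role given, and the genome build is not given in the sources used here. Alignments hold at most 1 mismatch or indel, and reads are 16 to 51 nt long.

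From these counts, each read was assigned once, by anticodon and by class. Counts of all tRNA reads were tested on the whole table with edgeR 4.0.16 (R 4.3.3: filterByExpr, TMM, quasi-likelihood test, Benjamini-Hochberg adjustment), with taurocholate over untreated as the contrast. The SE of a log2 fold change is its size over the root of the F statistic. The fit was tested on simulated data with known changes, all larger than the changes of Arg classes and anticodon groups given above. It recovered those of fragment classes and anticodon groups but missed many of those of read sequences. Smaller changes were not simulated, so the simulation does not show whether changes of the sizes seen here would be called. DESeq2 1.42.0 was an alternative. CPM are counts scaled to 1000000 tRNA reads, without TMM. Shares were compared by exact permutation tests, unpaired for taurocholate against untreated and paired by library for Arg against other tRNAs. Starts and ends were examined where held by at least 5% of a feature with at least 10 reads in each library. Named are all Arg combinations that passed the filter, lead sequences per anticodon and class, and the 3 sequences of smallest p per direction with at least 10 CPM. Members, lists and tests were chosen with earlier results of these data known. Replicates with the same number are not paired by the labels.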

Additional observations from a re-analysis of the deposited data

How the results depend on the processing

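Over the alternatives tried (DESeq2, library totals, no filter, a replicate block, each library left out, error-free reads, no reads of 51 nt and, chosen after seeing the data, no reads mismatched at the last base), calls among Arg anticodon groups and fragment classes stayed at 0, and those among fragment classes did so with a tolerance of 1 nt too. Calls among Arg read sequences were 0 except 1 with DESeq2, where 50 of the 73 had no adjusted p, and 2 without the filter, each high in 1 library. Library totals moved the median log2 fold change of all 230 combinations to -0.13, against 0.01 with TMM, and that of Arg to -0.24, against -0.10.

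With error-free reads the taurocholate difference was 2.37 points for i-tRF, -1.79 for tRF-3 and -0.117 for tiRNA-5, the start of ArgTCG tRF-3 was 1.62, log2 fold changes were 0.12 for ArgCCT i-tRF and 0.13 for ArgCCT, and the log2 lead of ArgCCT over ArgACG was 0.00865. Without reads mismatched at the last base the ArgTCG start was 0.018. The Arg excess of tiRNA-3 was 0.287 points without 51-nt reads and 0.193 without reads mismatched at the last base. With library totals ArgCCT ctaagccagggattgtgggt had -0.0304. With error-free reads Arg minus other tRNAs was 32.1 points for i-tRF and -4.84 for tRF-3. Counting any Arg alignment, run for the Arg share alone, gave -0.438 points. The causes were not tested.

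Leaving out each library gave -2.62 to 2.52 points for i-tRF, -2.06 to 2.67 for tRF-3, -0.00401 to 0.122 for tiRNA-5, -0.919 to 0.155 nt for the 5′ length, -4.01 to 0.796 points for the main start of ArgACG tRF-3 and -5.26 to 0.868 for ArgTCG. Arg minus other tRNAs was 52.5 to 54.8 points for i-tRF, -24.0 to -22.3 for tRF-3, 0.164 to 0.374 for tiRNA-3, -14.2 to -12.8 for tRF-5 and -17.5 to -15.8 for tiRNA-5. The log2 order was 1.46 to 1.62, 1.05 to 1.33, 1.05 to 1.22 and 0.86 to 0.93. These paired tests pass the threshold only with 6 pairs, since 5 pairs give at least 0.0625. Log2 fold changes ran over -0.0127 to 0.38 for ArgTCG tRF-3, -0.0276 to 0.58 for ArgTCT tRF-3, -0.16 to 0.0157 for ArgTCG, -0.0285 to 0.38 for ArgTCT, -0.22 to 0.13 for tcctggctggctcgcca and -0.0257 to 0.40 for ctaagccagggattgtgggt.

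Same-numbered libraries deviated with correlations of -0.229, 0.026 and 0.283 over 230 features. Only taurocholate replicate 3 correlated best with the untreated library of its own number. With 3 libraries a group this check cannot settle whether the numbers pair them, and the labels do not say. The replicate block gave 0 calls at all 3 levels, with smallest adjusted p of 0.598, 0.665 and 0.402 among Arg.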

Other observations

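A 23-nt ArgACG fragment of positions 54 to 76, ttcgactcctggctggctcgCCA (capitals mark CCA), had 0, 1 and 0 reads with taurocholate, and 1, 2 and 76 untreated. It starts 1 base before the 22-nt fragment, which had 62 reads in the same library, untreated replicate 3. The erythrocyte miRNA miR-451 was also highest there, at 1148 CPM, against 209, 32.5 and 516 CPM with taurocholate and 191 and 34.4 CPM in the other untreated libraries; its part in the fragment was not tested.

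ArgCCT 35 to 54 with T54G had 170, 6 and 6 reads with taurocholate, and 18, 8 and 5 untreated. The library that holds most of them, taurocholate replicate 1, is the one with the high share of mismatched last-base G.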
